A study of Mus musculus with 2 samples.

Results

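Interleukins are secreted signals between leukocytes and tissue cells, and most of them act through receptors of 2 or more chains. The genes described here are the protein-coding genes of GENCODE release M21 of the mouse whose symbols start with Il and a digit. Il1b, Il18 and Il1r2 were left out by the rule that chose them. This gave 79 genes of the 37315 identifiers in the count files, and all 79 are listed there: 37 ligands, 39 receptor chains, and 3 genes that are neither (Il18bp, Il22ra2 and Il4i1). The rule used symbols alone and no measured value. Messenger RNA from whole lung of C57BL/6 mice was sequenced from 1 control library and from 1 library of animals exposed to PM2.5, airborne particles of up to about 2.5 micrometres. Neither group carries a transgene or a further treatment in the labels, which do not give the sex, the age, the dose, the route or the number of animals behind a library. Both titles hold the number 12 and the letter W, which are not spelled out.

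The families differ in how they signal. IL-1 family receptors pair a ligand-binding chain with an accessory chain and signal through MyD88 and IRAK kinases. Receptors of the gamma chain, gp130, IL-12 and IL-10 families signal through JAK kinases and STAT factors, which SOCS proteins restrain, and IL-17 receptors use the adaptor Act1. In lung, IL-33 is stored in epithelial and other tissue cells and alerts innate lymphoid cells, while IL-15 sustains natural killer cells and memory T cells. Transcript levels of a secreted ligand do not show how much of it is released.

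Sequencing depth was 62788045 counts for control lung and 57435027 for PM2.5. Below, a pair of values is always in that order, control before PM2.5. With 1 library a group there is no replicate check, so no p-value is given and each comparison describes these libraries, not the exposure. Levels are counts per 1000000 counts of the library (CPM), with library sizes scaled with edgeR's TMM method, and each ratio of CPM, PM2.5 over control, has an exact 95% interval that covers counting error only. The labelled tissue carried its markers: 4 alveolar type 2 genes summed to 21963 and 25075 CPM, and 3 club cell genes to 21504 and 33029 CPM. Several cell type markers differed between the libraries. Summed neutrophil markers were 449 and 1541 CPM, natural killer (NK) cell markers 29.4 and 77.6 CPM, B cell markers 188 and 332 CPM, and fat markers 37.2 and 312 CPM. T cell markers were 58.1 and 62.8 CPM, whereas endothelial markers (3942 and 1686 CPM) and fibroblast markers (3266 and 1283 CPM) were lower in the PM2.5 library. In bulk tissue, a change in the number of cells of a type and a change in RNA per cell cannot be told apart.

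Of the 79 genes, 10 had no count in either library, 16 had from 1 to 19 counts over both, 9 had 20 or more but a mean below 1 CPM, and 44 reached a mean of 1 CPM. Ligands were the rare ones: 11 of 37 reached 1 CPM, against 30 of 39 receptor chains. A gene was called higher or lower at 1.5-fold or more where its interval also left out a ratio of 1. Among the 44 genes, 13 were higher in the PM2.5 library, 5 were lower and 26 were neither. The same rule called 14.9% of all 14518 genes at 1 CPM higher and 19.1% lower. That background depended on the level. It was 31.7% higher and 14.2% lower for genes with a mean of 1 to 10 CPM, and 8.31% higher and 21.1% lower for genes of at least 10 CPM.

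Read against these shares, abundant receptor chains followed the background in the lower direction. Of 21 receptor chains of at least 10 CPM, 3 were higher and 4 lower. Of 9 receptor chains between 1 and 10 CPM, 5 were higher and none lower. Il9r and Il17rb reached a mean of 1 CPM only through the PM2.5 library, so they had to be high there and add nothing to that count. Of 6 ligands between 1 and 10 CPM, 2 were higher and none lower, and of 5 ligands of at least 10 CPM, 1 was higher and 1 lower. The median log2 ratio was 0.35 for ligands and 0.11 for receptor chains, beside -0.09 for all genes. These medians also depended on the level. Between 1 and 10 CPM they were 0.30 for ligands, 0.71 for receptor chains (with Il9r and Il17rb) and 0.24 for all genes. For genes of at least 10 CPM they were 0.43, 0.01 and -0.19.

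**Figure D1:**
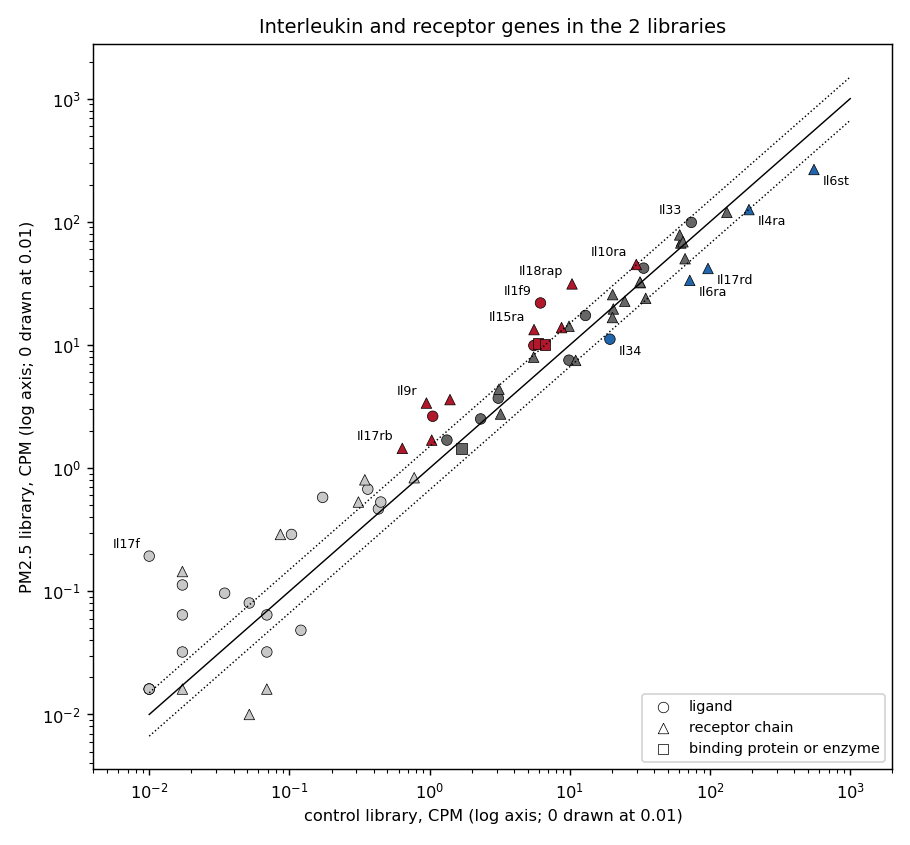
Level of each member with a count, in CPM on log axes, in the control library (x axis) and the PM2.5 library (y axis), with a level of 0 drawn at 0.01. The solid line marks equality and the dotted lines 1.5-fold, red marks members called higher, blue members called lower, dark grey members called neither and pale grey members below a mean of 1 CPM. Il6st, at 551 and 266 CPM, lies apart at the top, and the red symbols lie at or below 45.0 CPM in the PM2.5 library.

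Among ligands of the IL-1 family, Il1f9 stood out. It encodes IL-36 gamma, an epithelial and myeloid cytokine (ENSMUSG00000044103, chr2:24186476-24193568, plus strand of GRCm38), and had 358 and 1364 counts, or 6.18 and 21.9 CPM. The ratio was 3.55 (95% interval 3.16 to 4.0), the highest among ligands of at least 1 CPM. Il33 was the most abundant ligand per length, at 25.5 and 34.3 CPM per kb of exon. Its 4263 and 6152 counts gave a ratio of 1.35 (1.29 to 1.4), an excess beyond counting error but short of 1.5-fold. Il1rn, the natural antagonist of the IL-1 receptor, had a similar ratio of 1.34 (1.22 to 1.48) on 749 and 1080 counts. Il1a, an alarmin released from damaged cells, had 134 and 156 counts and a ratio of 1.09 (0.856 to 1.38), which includes equality. The other IL-36 ligands, Il1f6 and Il1f8, the antagonist gene Il1f5 and Il1f10, the gene of IL-38, had no count in either library.

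In the gamma chain family, whose receptors share the chain encoded by Il2rg, Il15 was the ligand called higher. It had 321 and 616 counts, 5.54 and 9.90 CPM, and a ratio of 1.79 (1.56 to 2.05). Il7, the survival factor of lymphocytes, had 179 and 230 counts and a ratio of 1.2 (0.981 to 1.46). Il4, which drives type 2 responses, had 77 and 105 counts and a ratio of 1.27 (0.938 to 1.73). Both of these intervals include equality. The T cell cytokines Il2 and Il21 had 7 and 3 counts and 1 and 2 counts, and Il9 had none.

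Other cytokines of type 2 and of helper T cells were at the limit of detection. Il5 had 4 and 2 counts, Il13 had 4 in each library, and Il3 and Il25 had none. Il17a, a cytokine that recruits neutrophils, had 0 and 1 count, and Il17f had 0 and 12. Il22 had 0 and 1, Il10 2 and 6, Il24 3 and 5, Il17b 1 and 4, Il23a 1 and 7, and Il31 0 and 1, while Il19 and Il20 had none. No ratio is given for a gene of fewer than 20 counts over both libraries. A count of 0 allows up to 3 counts, or levels of 0.0517 and 0.0482 CPM.

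Il12a, the p35 subunit of IL-12, had 61 and 164 counts, 1.05 and 2.64 CPM, a ratio of 2.51 (1.86 to 3.42). The partner subunit gene Il12b was rarer and had a ratio of 1.86 (1.08 to 3.31) on 21 and 42 counts. Il27, the p28 subunit of IL-27, had 10 and 36 counts and a ratio of 3.36 (1.63 to 7.58), and epithelial Il17c had 6 and 18 counts and a ratio of 2.80 (1.06 to 8.61). Il12b, Il27 and Il17c lay below 1 CPM and are not in the counts above. Apobr, with 1152 and 1457 counts, covers 10.1% of the exon length of Il27 on the opposite strand. Il6, a main inducer of the acute phase, had only 26 and 33 counts, a ratio of 1.18 (0.686 to 2.06). Il11, of the same family, had 25 and 29 counts and a ratio of 1.08 (0.611 to 1.93). At this depth neither Il6 nor Il11 differed beyond counting error.

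Il34 was the ligand called lower. It encodes the ligand of the CSF1 receptor that supports some tissue macrophages, and had 1120 and 693 counts, 19.3 and 11.1 CPM, which is 1.73-fold lower (1.58 to 1.91), a call lost with library totals. Il17d, the third most abundant ligand per length after Il33 and Il34 in the control library at 7.73 CPM per kb, had 571 and 468 counts and was 1.31-fold lower (1.16 to 1.48). Il16, a chemoattractant cut from a larger precursor, had 1947 and 2615 counts and a ratio of 1.25 (1.18 to 1.33). Stard5 and another gene cover 17.4% of its exon length on the opposite strand.

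**Figure D2:**
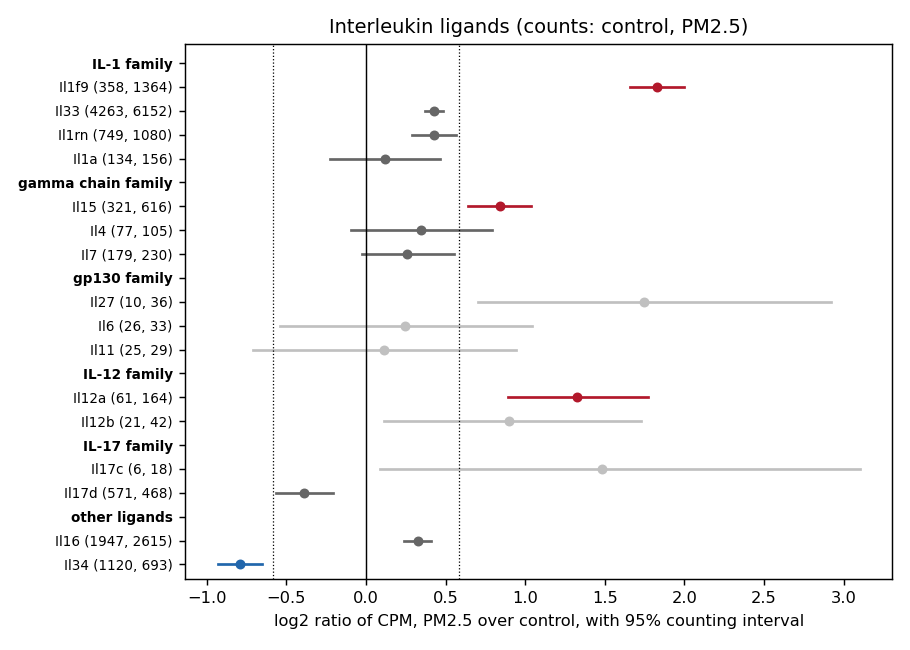
Log2 ratio of CPM, PM2.5 over control, for the ligands with at least 20 counts over both libraries, grouped by family, with the counts in the control and PM2.5 libraries beside each symbol. Points are ratios, bars 95% counting intervals and dotted lines 1.5-fold, with red for higher, blue for lower, dark grey for neither and pale grey for a mean below 1 CPM. Il1f9, Il15 and Il12a lie to the right of 1.5-fold, and Il34 lies to the left.

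The 3 members that are neither ligand nor receptor chain act outside cells. Il18bp, a secreted protein that captures IL-18, had 345 and 637 counts and a ratio of 1.72 (1.51 to 1.97). Il22ra2, which captures IL-22, had 98 and 90 counts and a ratio of 0.856 (0.636 to 1.15). Il4i1, an L-amino acid oxidase of myeloid cells, had 386 and 626 counts and a ratio of 1.51 (1.33 to 1.72). Exons of Tbc1d17 and Atf5 cover 85.9% of Il4i1 on the opposite strand and the strand setting of the counting is not given, so its count is uncertain.

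Receptor chains of the IL-6 family held the most abundant member. Il6st encodes gp130, the signalling chain shared by IL-6, IL-11 and related cytokines. The gene (ENSMUSG00000021756) spans chr13:112464070-112510086 on the plus strand of GRCm38. It had 31953 and 16542 counts, or 49.7 and 24.0 CPM per kb, and was 2.07-fold lower in the PM2.5 library (2.03 to 2.11). Il6ra, the chain that binds IL-6, had 4156 and 2081 counts and was 2.14-fold lower (2.03 to 2.26). Il11ra1, which binds IL-11, had a ratio above equality, 1.29 (1.23 to 1.35), on 3522 and 4867 counts. Il11ra2, its near copy, had no count, and reads that fit both copies could have been lost or assigned to one. Il27ra, of the IL-27 receptor, had 506 and 861 counts and a ratio of 1.59 (1.42 to 1.77), and Il31ra, of the receptor of the itch cytokine IL-31, had 5 and 18.

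Il6st alone made up most of the difference in the summed level of the receptor chains, -285 of -388 CPM. The 30 chains of at least 1 CPM summed to 1631 and 1244 CPM, a log2 ratio of -0.39. Without Il6st the sums were 1080 and 978 CPM, a log2 ratio of -0.14. With this scaling the summed level of all genes of at least 1 CPM itself had a log2 ratio of -0.23. The receptor sum was thus below that value with Il6st and above it without Il6st. The 5 members called lower had a median exon length of 8642 nt against 3707 nt for the 13 called higher. With the trend of the log2 ratio on exon length over all genes removed, the log2 ratio was -0.70 for Il6st in place of -1.05 and -0.80 for Il6ra in place of -1.10, and both were still called lower.

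Il17rd, an IL-17 receptor-like protein that restrains fibroblast growth factor signals, was lower to a like extent. It had 5607 and 2600 counts, 96.7 and 41.8 CPM, and was 2.31-fold lower (2.21 to 2.42), with a log2 ratio of -0.86 once the length trend was removed. The chains that carry IL-17A and IL-17F signals stayed under 1.5-fold. With the length trend removed, the log2 ratio of Il17ra was 0.42 in place of 0.12, and that of Il17rc stayed at 0.01. Il17ra had 3586 and 4186 counts and a ratio of 1.09 (1.04 to 1.14), Il17rc had 1846 and 1993 and a ratio of 1.01 (0.944 to 1.07), and Il17re, the chain for IL-17C, had 1429 and 1408 and a ratio of 0.918 (0.853 to 0.989). Il17rb, the receptor of IL-25, had 37 and 90 counts and a ratio of 2.27 (1.53 to 3.42).

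Within the IL-1 receptor family, Il18rap was higher and the other measured chains stayed under 1.5-fold. Il18rap is the accessory chain of the IL-18 receptor, found on NK cells and T cells among others (ENSMUSG00000026068, chr1:40515362-40551705, plus strand). It had 601 and 1948 counts, 10.4 and 31.3 CPM, and a ratio of 3.02 (2.76 to 3.32). Its partner Il18r1, the ligand-binding chain, was the third most abundant receptor chain per length by the mean of both libraries, and its ratio was 0.905 (0.877 to 0.935) on 7642 and 7421 counts. Il1rl1, known as ST2, is the receptor of IL-33 and had 320 and 495 counts and a ratio of 1.44 (1.25 to 1.66). These counts do not separate its membrane form from its soluble form. Il1r1, the signalling receptor of IL-1, was 1.32-fold lower (1.26 to 1.39) on 3847 and 3119 counts. Il1rap, the accessory chain shared by the receptors of IL-1, IL-33 and IL-36, was 1.46-fold lower (1.36 to 1.56) on 2016 and 1486 counts. Il1rl2, the IL-36 receptor, was 1.47-fold lower (1.30 to 1.66) on 638 and 466 counts. With the length trend removed, the log2 ratios of Il1r1, Il1rap and Il1rl2 were -0.19, -0.18 and -0.32, in place of -0.40, -0.54 and -0.55. The mainly neuronal Il1rapl1 and Il1rapl2 had 1 and 9 counts and 1 in each library.

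Among gamma chain receptors, Il15ra and Il9r were higher and Il4ra lower. Il15ra, which presents IL-15 to neighbouring cells, had 322 and 829 counts, 5.55 and 13.3 CPM, and a ratio of 2.40 (2.11 to 2.74). Il9r, the IL-9 receptor of mast cells and lymphocytes, had a ratio of 3.56 (2.63 to 4.88) on 55 and 210 counts. That was the highest of the receptor chains of at least 1 CPM, a level Il9r reached only through the PM2.5 library. Il4ra, the chain shared by the receptors of IL-4 and IL-13, had 10983 and 7818 counts. It was 1.51-fold lower (1.46 to 1.55), just past the size for a call, and its log2 ratio was -0.39 with the length trend removed. The common gamma chain Il2rg had 1835 and 2018 counts and a ratio of 1.03 (0.962 to 1.09), and Il2rb, shared by the IL-2 and IL-15 receptors, 1184 and 1219 and a ratio of 0.960 (0.885 to 1.04). The high-affinity IL-2 chain Il2ra had a ratio of 0.857 (0.692 to 1.06) on 186 and 171 counts. The intervals of these 3 genes hold equality. Il7r had 1171 and 1594 counts and a ratio of 1.27 (1.18 to 1.37), and Il21r 572 and 882 and a ratio of 1.44 (1.29 to 1.60).

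The remaining families were mixed. Il10ra, which binds the anti-inflammatory cytokine IL-10, had 1727 and 2801 counts and a ratio of 1.51 (1.42 to 1.61), a call lost with DESeq2 size factors, while Il10rb, shared with the receptors of IL-22 and interferon lambda, had 3632 and 4339 and a ratio of 1.11 (1.07 to 1.16). Il20rb, a chain of the receptors of IL-19, IL-20 and IL-24, had 81 and 224 counts and a ratio of 2.58 (1.99 to 3.37), whereas its partner Il20ra had 3 and 0. The epithelial IL-22 receptor Il22ra1 had 45 and 52 counts and a ratio of 1.08 (0.709 to 1.64). Il12rb1, shared by the receptors of IL-12 and IL-23, had 60 and 105 counts and a ratio of 1.63 (1.18 to 2.28). Il12rb2 had 181 and 272 and a ratio of 1.40 (1.16 to 1.70), but Serbp1, with 15096 and 16809 counts, covers 40.04% of its exon length on the opposite strand. Il23r had 18 and 33 counts and a ratio of 1.71 (0.935 to 3.22). Il13ra1, which pairs with Il4ra, had a ratio of 1.07 (1.03 to 1.12) on 3716 and 4284 counts. The IL-3 receptor chain Il3ra was 1.21-fold lower (1.11 to 1.31) on 1167 and 1039 counts. The IL-5 receptor chain of eosinophils, Il5ra, had 20 and 50 counts and a ratio of 2.33 (1.36 to 4.13), and the IL-13 decoy Il13ra2 had 4 and 1.

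**Figure D3:**
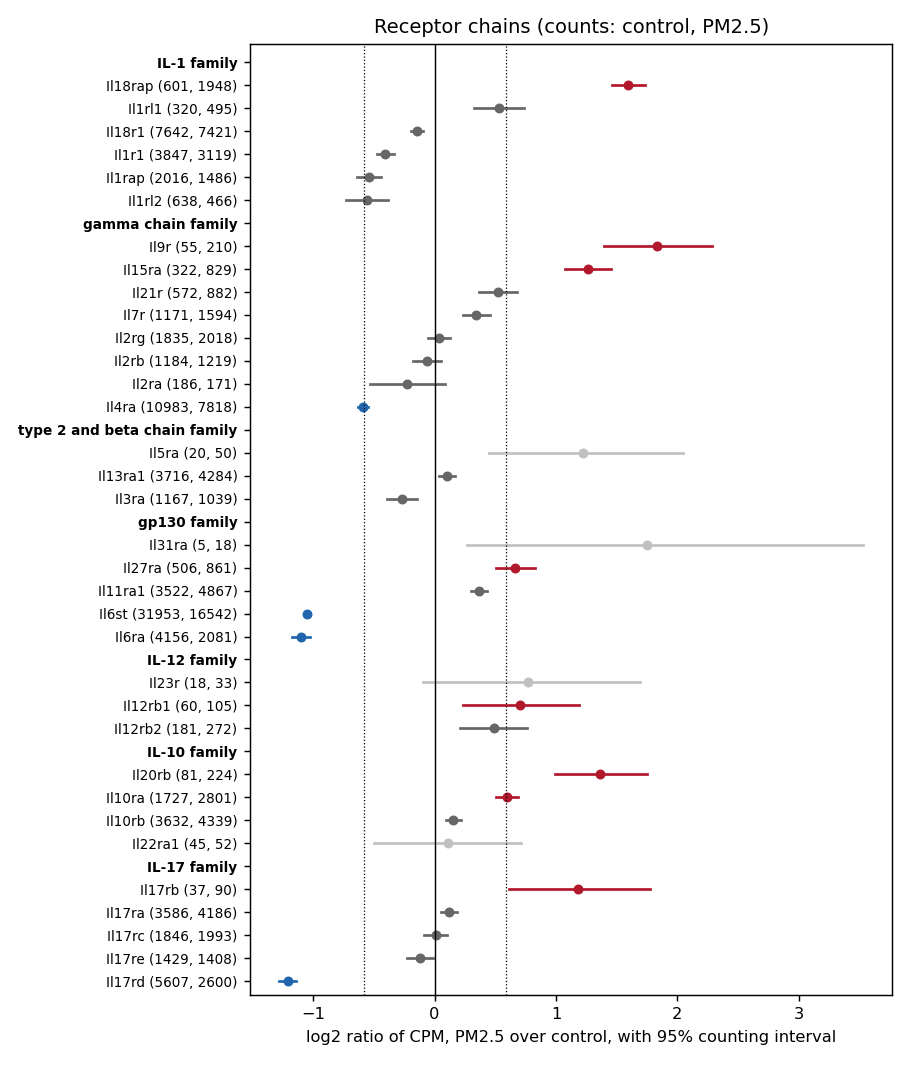
Log2 ratio of CPM, PM2.5 over control, for the receptor chains with at least 20 counts over both libraries, grouped by family, with the counts in the control and PM2.5 libraries beside each symbol. Points are ratios, bars 95% counting intervals and dotted lines 1.5-fold, with red for higher, blue for lower, dark grey for neither and pale grey for a mean below 1 CPM. Il6st, Il6ra and Il17rd lie at -1.05, -1.10 and -1.21, and Il9r, Il18rap and Il20rb lie at 1.83, 1.60 and 1.37.

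Several members lay close to the size for a call. Just past it were Il4ra at 1.51-fold lower, Il4i1 and Il10ra at ratios of 1.51 each, and Il27ra at 1.59. Just short of it were Il1rl2 and Il1rap at 1.47-fold and 1.46-fold lower, and Il1rl1, Il21r and Il12rb2 at ratios of 1.44, 1.44 and 1.40. Of the 18 receptor chains short of the size, 8 had an interval above equality, 6 below it and 4 across it. Of the 7 such ligands, 3 lay above, 1 below and 3 across. The share of all genes with such intervals is not given here, so these splits are description only. Il18r1 and Il17re, among the chains below equality, lay above it with library totals, at log2 ratios of 0.09 and 0.11.

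Sequences before the start sites are shown for 5 members that the results turn on: the ligand and the 2 receptor chains with the most counts among those at ratios above 2 (Il1f9, Il18rap and Il15ra) and the gp130 pair that was lower (Il6ra and Il6st). Each is the 250 bases before the RefSeq start on GRCm38.p6, 5′ to 3′ on the strand of the gene. Capitals mark a match, on either strand, to 1 of 5 short motifs: AP-1 (TGANTCA), STAT (TTCNNNGAA), NF-kB (GGANTTNCC), the interferon element (AAANNGAAA) and the core of the aryl hydrocarbon receptor site (GCGTG). The printed matches do not overlap one another. The windows are chr2:24186226-24186475 for Il1f9, chr1:40515112-40515361 for Il18rap, chr2:11705043-11705292 for Il15ra, chr3:89913197-89913446 (minus strand) for Il6ra and chr13:112463820-112464069 for Il6st, with the others on the plus strand.
Il1f9: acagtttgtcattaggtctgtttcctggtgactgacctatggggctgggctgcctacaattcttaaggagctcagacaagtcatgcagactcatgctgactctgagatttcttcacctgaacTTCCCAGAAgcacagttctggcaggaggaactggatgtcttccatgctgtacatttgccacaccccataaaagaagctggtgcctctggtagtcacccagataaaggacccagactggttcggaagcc
Il18rap: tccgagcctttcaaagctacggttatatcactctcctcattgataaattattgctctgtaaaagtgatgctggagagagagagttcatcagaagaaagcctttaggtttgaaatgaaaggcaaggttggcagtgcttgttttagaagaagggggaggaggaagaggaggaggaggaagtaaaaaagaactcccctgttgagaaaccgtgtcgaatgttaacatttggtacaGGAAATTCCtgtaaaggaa
Il15ra: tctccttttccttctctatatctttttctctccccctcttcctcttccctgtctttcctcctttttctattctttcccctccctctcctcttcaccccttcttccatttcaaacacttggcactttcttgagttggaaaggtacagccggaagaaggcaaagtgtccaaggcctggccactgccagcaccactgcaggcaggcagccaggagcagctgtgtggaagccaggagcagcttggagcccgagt
Il6ra: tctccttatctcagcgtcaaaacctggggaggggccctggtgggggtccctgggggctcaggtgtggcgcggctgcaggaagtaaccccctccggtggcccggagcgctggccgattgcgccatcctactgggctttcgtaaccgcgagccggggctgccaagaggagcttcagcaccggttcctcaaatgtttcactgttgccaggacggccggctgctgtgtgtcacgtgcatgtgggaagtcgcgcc
Il6st: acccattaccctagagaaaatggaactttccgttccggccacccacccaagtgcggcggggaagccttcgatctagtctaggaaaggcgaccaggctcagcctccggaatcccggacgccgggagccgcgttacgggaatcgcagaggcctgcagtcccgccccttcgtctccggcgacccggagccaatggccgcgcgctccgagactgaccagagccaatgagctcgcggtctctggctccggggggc

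The window of Il1f9 held a STAT match from position -128 and that of Il18rap an NF-kB match from position -19, where -1 is the base just before the start. The other 3 windows held none of the 5 motifs. The windows of Il6ra and Il6st were rich in G and C (65.2% and 66.0%), and that of Il18rap was not (42.0%). Among 32817 windows of this length in the table, 7.01% held the STAT motif, 3.15% the NF-kB motif, 6.75% the AP-1 motif, 9.37% the interferon element and 28.1% the aryl hydrocarbon receptor core. An entry was found for 62 of the 79 genes. The 9 called higher included 1 with a STAT match, 1 with an NF-kB match, 1 with an AP-1 match, 2 with the receptor core and none with the interferon element. The 4 called lower included 1 with the receptor core and none with the other motifs. These are matches of letters, not measured binding.

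Chains of 1 receptor can be set against each other within a library, which no scaling of the libraries affects, though the trend on exon length does. The level of Il18rap per length was 0.0561 times that of Il18r1 in control lung and 0.187 times after PM2.5, so the quotient was 3.34-fold higher (3.03 to 3.68). Il6ra and Il6st kept nearly the same quotient, 0.167 and 0.162, a change of 0.967 (0.915 to 1.02). The quotient of Il11ra1 to Il6st went from 0.274 to 0.730, which is 2.67-fold higher (2.55 to 2.80). The binding chain of IL-11, and not that of IL-6, thus differed between the libraries in its proportion to gp130 transcripts.

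Similar quotients described the IL-33, IL-36, IL-15 and IL-4 systems. Il33 exceeded Il1rl1 31.8 times and 29.7 times per length, a change of 0.933 (0.804 to 1.08) that includes none. The quotient of Il1rl1 to its accessory chain Il1rap went from 0.262 to 0.549, 2.1-fold higher (1.79 to 2.46). For IL-36 gamma, the quotient of Il1f9 to the receptor gene Il1rl2 went from 2.32 to 12.1, 5.22-fold higher (4.40 to 6.18). The antagonist Il1rn was 0.224 times Il1r1 and then 0.398 times, 1.78-fold higher (1.60 to 1.98). Il15ra against Il2rb went from 0.262 to 0.656, 2.50-fold higher (2.14 to 2.92). Against Il13ra1, Il4ra went from 1.83 to 1.13, 1.62-fold lower (1.54 to 1.71), so that the 2 chains of the shared IL-4 and IL-13 receptor came closer in level. In the IL-17 receptor, Il17rc to Il17ra was 1.67 and 1.54, a change of 0.925 (0.855 to 1.0). These quotients were taken without removing the length trend. Once it was removed, the log2 change of Il17rc to Il17ra was -0.41 in place of -0.11. That of Il33 to Il1rl1 was -0.31 in place of -0.10.

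**Figure D4:**
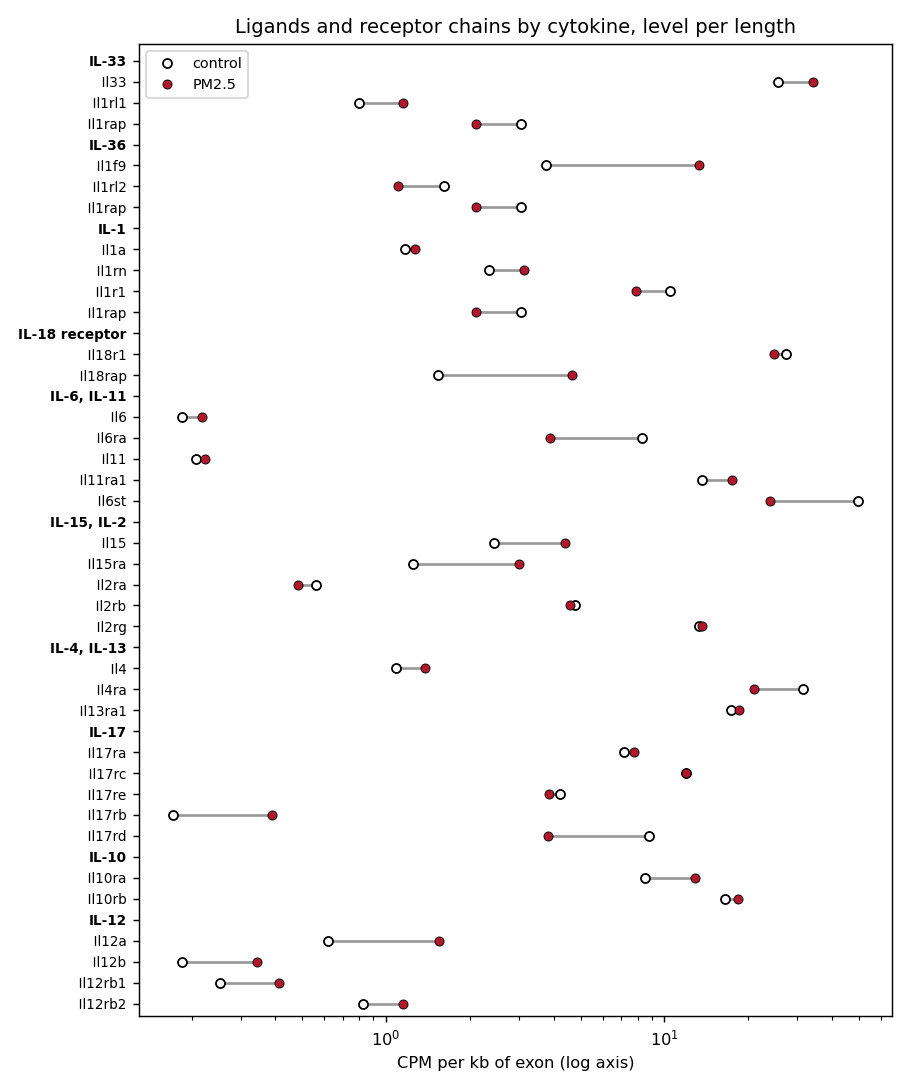
Level per length, in CPM per kb of exon on a log axis, of ligands and receptor chains arranged by cytokine, with open circles for the control library and red circles for the PM2.5 library joined by a line. Il1rap appears under each cytokine that uses it. Il33 and Il6st lie at the right, Il6 and Il11 lie near 0.2 CPM per kb, and Il18rap moved towards Il18r1 while Il6ra and Il6st moved left together.

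Neighbouring members, within 500 kb of each other, differed in direction in some places and shared it in others. On chromosome 1 of GRCm38, 5 receptor genes on the plus strand lie between 40225080 and 40551705, in the order Il1r1, Il1rl2, Il1rl1, Il18r1 and Il18rap. Their log2 ratios were -0.40, -0.55, 0.53, -0.14 and 1.60. On chromosome 2, the IL-1 ligand genes between 24153161 and 24351494 held counts only for Il1f9 and Il1rn, at log2 ratios of 1.83 and 0.43, the other 4 being at 0. Il2ra and Il15ra, adjacent on chromosome 2 from 11642807 to 11734317, had log2 ratios of -0.22 and 1.26. Il4ra and Il21r, adjacent on chromosome 7 from 125552120 to 125633570, had log2 ratios of -0.59 and 0.52. Il12rb2 and Il23r, on chromosome 6 from 67291318 to 67491855, had log2 ratios of 0.49 and 0.77, though Il23r was below 1 CPM and its interval held equality. The type 2 cytokine genes Il4, Il13 and Il5 on chromosome 11, from 53602982 to 53725106, had 77 and 105, 4 and 4, and 4 and 2 counts.

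Other genes of interleukin signalling, whose symbols do not start with Il, formed a list of 49, and all reached 1 CPM. In the PM2.5 library 8 were higher, 5 lower and 36 neither, with a median log2 ratio of -0.03 beside -0.09 for all genes. Against the pooled shares of all genes, the share called higher is near 14.9% and the share called lower is under 19.1%. Those pooled shares are not matched in level. Most of the list had a mean of at least 10 CPM, where 8.31% of all genes were higher and 21.1% lower. Of those called higher, Lif and Osm lay below that level. The 3 cytokines of the list called higher, Lif, Osm and Clcf1, signal through gp130. Lif, leukaemia inhibitory factor, had 67 and 349 counts and a ratio of 4.86 (3.73 to 6.4). Osm, oncostatin M of neutrophils and macrophages, had 94 and 289 counts and a ratio of 2.87 (2.26 to 3.66), and Clcf1, which signals through gp130 and Lifr, 586 and 1640 and a ratio of 2.61 (2.37 to 2.87). Their receptor genes were lower or short of the size. Lifr was 1.65-fold lower (1.60 to 1.70) on 11648 and 7567 counts, a call lost with library totals and with the length trend removed (log2 ratio -0.38), and Osmr 1.35-fold lower (1.30 to 1.41) on 5194 and 4127. Cntfr, a further receptor gene of the list, had 283 and 269 counts and a ratio of 0.886 (0.747 to 1.05), which includes equality. Lif, Osm and Clcf1 on the one hand and Il6st on the other thus differed in opposite directions in these libraries.

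Of the JAK kinases, Jak3, which serves the common gamma chain, was higher at a ratio of 2.31 (2.17 to 2.45) on 1436 and 3552 counts. The broadly used Jak1 and Jak2 were both 1.4-fold lower, short of the size. Among STAT factors, Stat4, downstream of IL-12, had 528 and 993 counts and a ratio of 1.75 (1.58 to 1.95), while Stat3, downstream of gp130, was 1.57-fold lower (1.53 to 1.61) on 15664 and 10717 counts. The call on Stat3 was lost with library totals, with the upper quartile and with the length trend removed, at log2 ratios of -0.42, -0.51 and -0.33. Of the inhibitors, Cish, a target of STAT5, was higher at 1.73 (1.60 to 1.87) and Socs7 1.75-fold lower (1.65 to 1.84), a call lost with library totals and with the length trend removed. Socs3, which binds gp130, had 1840 and 2882 counts and a ratio of 1.46 (1.38 to 1.55), just short of the size. Among adaptors of IL-1 and IL-17 receptors, Nfkbiz, an inducible NF-kB cofactor, had 741 and 2581 counts and a ratio of 3.25 (2.99 to 3.53). Zc3h12a, an RNase that degrades cytokine mRNA, had a ratio of 1.74 (1.58 to 1.92). Tollip and Tab2 were 1.82-fold (1.76 to 1.89) and 1.51-fold lower (1.47 to 1.56), that of Tab2 being lost with library totals, the upper quartile and the length trend removed, and the central adaptor Myd88 had 2505 and 2525 counts and a ratio of 0.940 (0.889 to 0.993). Csf1r, the receptor of IL-34, had a ratio of 0.885 (0.859 to 0.912).

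**Figure D5:**
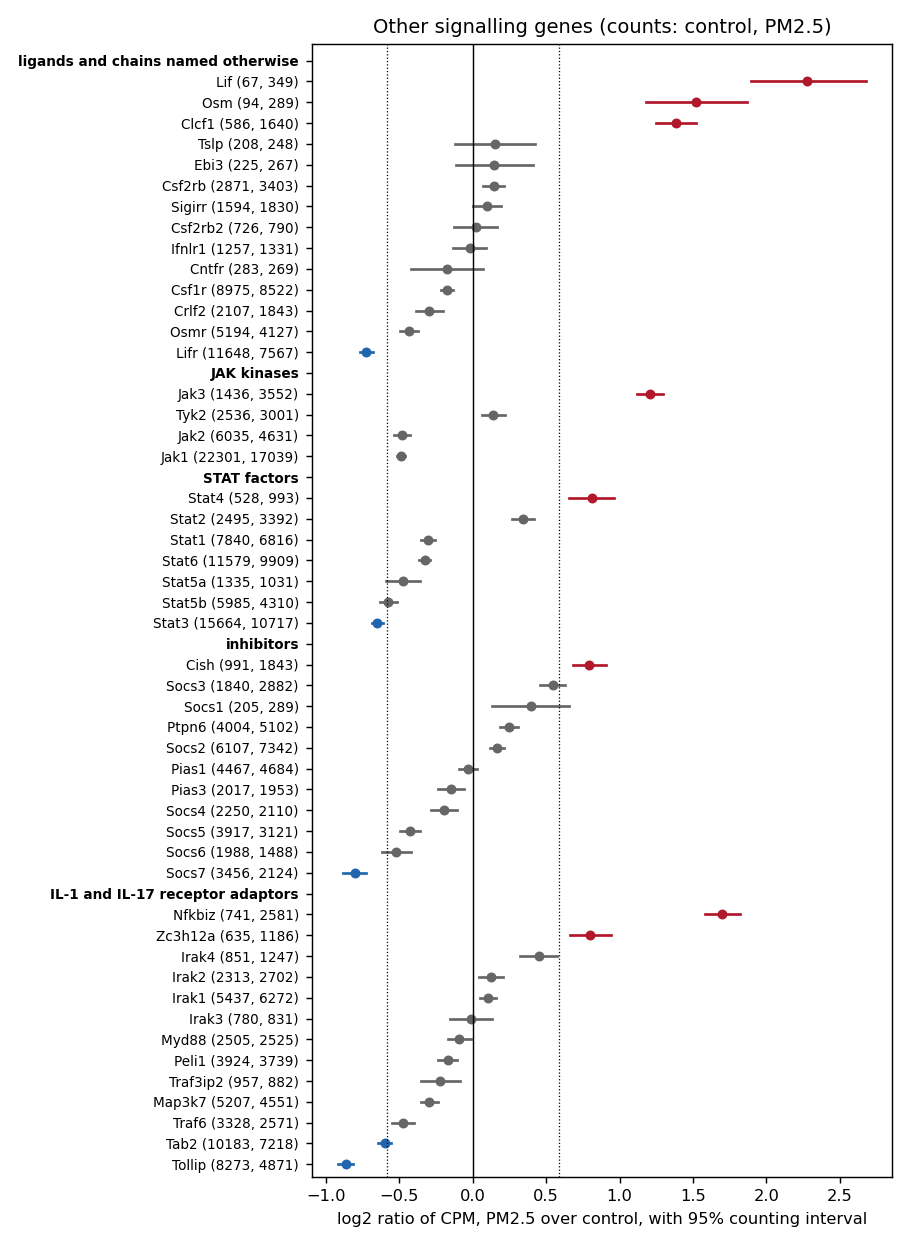
Log2 ratio of CPM, PM2.5 over control, for 49 other genes of interleukin signalling in 5 groups, with the counts in the control and PM2.5 libraries beside each symbol. Points are ratios, bars 95% counting intervals and dotted lines 1.5-fold, with red for higher, blue for lower and dark grey for neither. Lif lies farthest right at 2.28 and Tollip farthest left at -0.87.

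Markers of some cell types that carry these receptors moved in the direction of the receptors and others did not. All 4 NK cell markers were called higher, and their sum was 2.64-fold higher, next to Il18rap at 3.02-fold, Il15ra at 2.40-fold and Il12rb1 at 1.63-fold, but also next to Il2rb at a ratio of 0.960 and Il18r1 at 0.905. The T cell sum was 1.08-fold higher, with 1 of 6 markers called higher, next to Il7r at 1.27-fold and Il2rg at 1.03-fold. All 6 neutrophil markers were higher and their sum 3.43-fold higher, next to Il1f9 at 3.55-fold. Il1f9 is a ligand of epithelial as well as myeloid cells, and no receptor chain is set beside these markers. Of 5 mast cell and basophil markers, 4 met the size and interval for higher and 2 of the 5 lay below 1 CPM. Their sum went from 4.16 to 13.1 CPM, next to Il9r at 3.56-fold. Il9r and the markers Mcpt4 and Cma1 reached a mean of 1 CPM only through the PM2.5 library. They had to be high there, so nothing is drawn from their likeness. All 4 endothelial markers and 4 of 5 fibroblast markers were lower, while the fifth fibroblast marker, Dcn, was 2.68-fold higher. The sums were 2.34-fold and 2.55-fold lower, next to Il6st at 2.07-fold, Il6ra at 2.14-fold and Il17rd at 2.31-fold lower. Other receptor chains went less far or the other way, with Il1r1 1.32-fold and Osmr 1.35-fold lower and Il11ra1 1.29-fold higher. Of 4 markers of group 2 innate lymphoid cells, the IL-33 responders, Gata3 and Rora were lower and Klrg1 higher. Areg had a ratio of 1.44 (1.17 to 1.78), short of the size. The sum went from 94.9 to 62.0 CPM, of which Rora alone held 78.4 and 48.3 CPM, next to Il1rl1 at 1.44-fold higher. Of 4 eosinophil markers Ccr3 was higher, at 0.811 and 1.70 CPM, and the granule gene Epx had 5 counts and 0. The eosinophil sum of 22.0 and 16.0 CPM was mostly Siglecf, at 20.6 and 14.0 CPM, next to Il5ra with 20 and 50 counts. The lymphoid and eosinophil sums thus mainly follow 1 gene each. The part of these cell types in the ratios of the members was not tested.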

How the data were processed

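Gene expression was measured by RNA sequencing of poly(A) RNA from lung, 1 library per group, grouped by the exposure in the labels. Libraries were stranded and read in pairs of 125 bp, per the labels' protocols. TopHat2 2.1.1, HTSeq 0.6.0 and mm10 are named in the submitters' processing notes. Which annotation was counted, and with which strand setting, is not given in the sources used here. What the authors deposited are raw read counts per Ensembl gene (62788045 for control, 57435027 for PM2.5), and both files hold genes only, apart from 1 blank line.

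Symbols, coordinates and the merged exon length of each gene came from GENCODE M21 (GRCm38, or mm10), which named 35449 of 37315 identifiers. Upstream sequences came from RefSeq (GRCm38.p6). TMM factors from edgeR 4.0.16 were 0.923 and 1.08. The ratio of CPM has a Clopper-Pearson 95% interval, taken from the share of a gene's counts that PM2.5 held; the quotient of 2 genes has a conditional exact or, for large counts, a log-scale normal interval. Reads are not independent molecules, so intervals and floors (3 counts) cover counting error only. A ratio needed 20 counts over both libraries, and a call a mean of at least 1 CPM, 1.5-fold and an interval without 1. No p-value was computed across genes or samples. The steps were tested on simulated data.

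Described one by one were the members called, the 10 ligands and 10 receptor chains with the highest level per length, a set of well-known members whatever their values, and up to 12 called signalling genes. Tab2, Jak1, Jak2, Osmr, Cntfr, Socs3, Myd88, Csf1r and the rare members were chosen after their values were seen. A further gene of the signalling list is not reported here. The genes, lists and tests were chosen with earlier results of these data known. Alternatives were scaling by the upper quartile, by library totals or with DESeq2 1.42.0, TMM without the 100 most abundant genes, thinning of the deeper library, removal of the length trend (lowess, statsmodels 0.14.6), other filters and other size rules. R 4.3.3, matplotlib 3.10.9, scipy 1.17.1, pandas 2.3.3, numpy 2.4.6 and Python 3.11.15 were used.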

Additional observations from a re-analysis of the deposited data

How the results depend on the processing

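Scaling, filters and the size rule each moved counts of calls. Library totals raised all log2 ratios by 0.23 and the upper quartile by 0.14. With library totals 5 ligands were higher and 0 lower, and 1 other signalling gene was lower. The medians were 0.58 for ligands and 0.34 for receptor chains. Over all genes 23.8% were then higher and 9.90% lower, with a median of 0.14. With the upper quartile the receptor median was 0.25 and 3 other signalling genes were lower. For all genes the shares were 19.5% higher and 13.2% lower, and the median was 0.05. With the length trend removed, 5 ligands were higher and 2 lower, the receptor median was 0.23, and 1 other signalling gene was lower. All genes then gave 16.8% higher, 12.9% lower and a median of -0.0004. With 20 counts in place of 1 CPM as the filter, 6 ligands were higher, beside 20.6% of all genes. At a mean of at least 10 CPM, 1 ligand and 3 receptor chains were higher, beside 8.31% of all genes. At 2-fold, 0 ligands were lower, 5 receptor chains higher, and 5 other signalling genes higher and 0 lower. The shares of all genes were 7.25% higher and 6.04% lower. With the interval bound beyond 1.5-fold, 5 of 30 receptor chains were higher, beside 10.2% of all genes. At 2-fold and with this bound, the 5 chains included Il9r and Il17rb. These passed the filter only through the PM2.5 library, had to be high there and add nothing to either count. The cause of these differences was not tested beyond the shifts given.

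Of the 18 members called, all kept their call with TMM without the 100 most abundant genes and in the thinned library, and none changed direction under any scaling, the thinning or the length correction. Il10ra and Il4i1 lost the call with DESeq2 size factors and Il34 with library totals. Il4ra lost it with library totals, the upper quartile and the length correction. Other members gained a call. Il1rl1 and Il21r gained it with these same settings, and Il12rb2 with library totals and the upper quartile. Il33 and Il11ra1 gained it with library totals, Il1rn with library totals and the length correction, and Il16 and Il17d with the length correction. Of the 5 signalling genes called lower, Tollip kept the call in every scaling and the length correction, Lifr and Socs7 lost it with library totals and the length correction, and Stat3 and Tab2 with these and the upper quartile. The direction of Il18r1, which was not called, was -0.16 to 0.09 over the scalings. No paired analysis was possible because each group has 1 library. Variation between animals cannot be estimated from 1 library a group, and ligands of fewer than 20 counts were too rare for a ratio.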
